A study of Rattus norvegicus with 9 samples.

Results

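The Frizzled and Lrp genes encode the cell-surface receptors for Wnt proteins, and 10 of them were examined in rat pancreatic islets: Fzd1 to Fzd8, Lrp5 and Lrp6. Members were chosen by gene name. The array annotation pairs 9 of the 10 with a probe set of their own, 12 probe sets in all among 31042 (the annotation names 14217 genes), and Fzd7 has none named in the annotation used here. Where a gene had several probe sets, the one with the highest mean over the 9 arrays was taken as its main one and the others are given beside it.

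Pancreatic islets, small clusters of endocrine cells that secrete insulin, glucagon and other hormones, came from adult male Wistar rats, given as 7 weeks old before the 30 days of diet and housed singly. The cafeteria group (5 arrays) received a palatable diet with 66% of calories as fat for 30 days, and the standard group (4 arrays) received chow with 8% for 30 days. No transgene, mutation or drug is given in the labels for either group. Each array of the single-colour Affymetrix Rat Genome 230 2.0 type held an independent islet sample, and signals are linear MAS5 intensities. Arrays were grouped by sample title. The source name and the description of each sample name the same diet as its title. A separate diet characteristic contradicts all of these on 9 of 9 samples; if that entry were right, the groups would be exchanged and every sign below reversed. Defining islet markers were bright on every array: the summed signal of 8 named beta cell genes, led by Iapp, Ins1 and Slc2a2, was 137641 to 182615 in cafeteria islets and 120741 to 170626 in standard islets. Precision is limited by how many arrays there are, and in whole islets fewer cells of a type and less RNA per cell cannot be told apart.

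Wnt proteins are secreted lipid-modified ligands. A Wnt binds the extracellular cysteine-rich domain of a Frizzled, a multi-pass membrane receptor, and in the beta-catenin branch also engages Lrp5 or Lrp6, single-pass co-receptors whose phosphorylated tails recruit Axin. Beta-catenin then escapes degradation and acts with Tcf factors in the nucleus, while other branches use Frizzleds without Lrp5 or Lrp6. Secreted Frizzled-related proteins, among them Sfrp5 of the series title, share the ligand-binding domain and can keep Wnts from the receptors. In mice, loss of Lrp5 impairs glucose-induced insulin secretion from islets.

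The first question was which of these receptors gave a signal in islets above that of genes not expected there. For a yardstick, 27 probe sets of genes of other tissues, such as lens crystallins, sperm protamines and milk caseins, were read on the same arrays. Their mean signals had a median of 24.8 and reached 88.1 for Cyp2e1, a liver enzyme. The main probe sets of 6 receptors lay above all 27: Fzd3, Fzd4, Fzd6, Fzd8, Lrp5 and Lrp6. Each of these 6 was also above 91.1 on 9 of 9 arrays. That signal is the 40th percentile of mean brightness, below which probe sets were left out of the test over all genes. By that definition 18625 of all 31042 probe sets lay at or above it, so passing it is not particular to the receptors. The other 3 main probe sets lay within the range of the 27. Fzd2 had a mean of 83.2, with 2 of the 27 brighter, Fzd1 a mean of 59.7, with 3 brighter, and Fzd5 a mean of 52.8, with 6 brighter. For these 3 genes a signal in islets was not separable from that of genes of other tissues by brightness. Probe sets differ in affinity, so the signals give no order of transcript amount among the receptors.

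**Figure D1:**
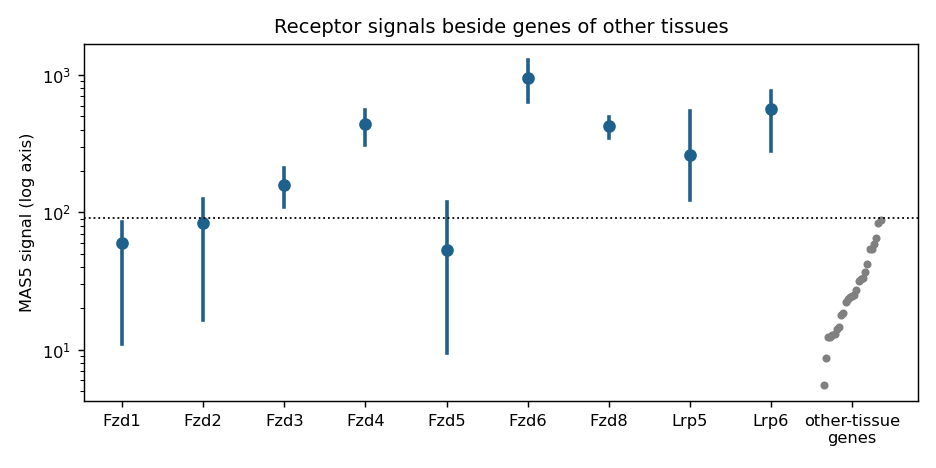
Mean MAS5 signal (log axis) of the main probe set of each receptor over 9 arrays (blue points, with bars from the lowest to the highest array) and mean signals of 27 probe sets of other-tissue genes (grey points); the dotted line is the brightness filter at 91.1. Fzd3, Fzd4, Fzd6, Fzd8, Lrp5 and Lrp6 lie above all grey points, and Fzd1, Fzd2 and Fzd5 lie among them.

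The second question was whether the diet changed the receptors. Of the 6 main probe sets bright enough to be tested, 0 passed limma's test over all 18625 such probe sets at an adjusted p of 0.05, as did 0% of all those tested (adjusted p 0.839 to 0.989 for the 6; lowest of all probe sets 0.228). At an unadjusted limma p under 0.05 there was 1 of 6, Lrp5, against 5.8% of all probe sets tested. The log2 folds of cafeteria over standard were negative for 4 of 6, where 51.9% of all tested were negative, with a median of -0.03 beside -0.01 over all. Folds here and below are of signal + 16, which understates the change of dim genes. By exact two-sided permutation over the 126 splits of the arrays into 5 and 4, where the smallest possible p is 0.0079, 2 of all 12 member probe sets had an unadjusted p under 0.05, the single Fzd1 probe set and the dimmer one of Fzd4. The share over all probe sets was 5.3%.

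**Figure D2:**
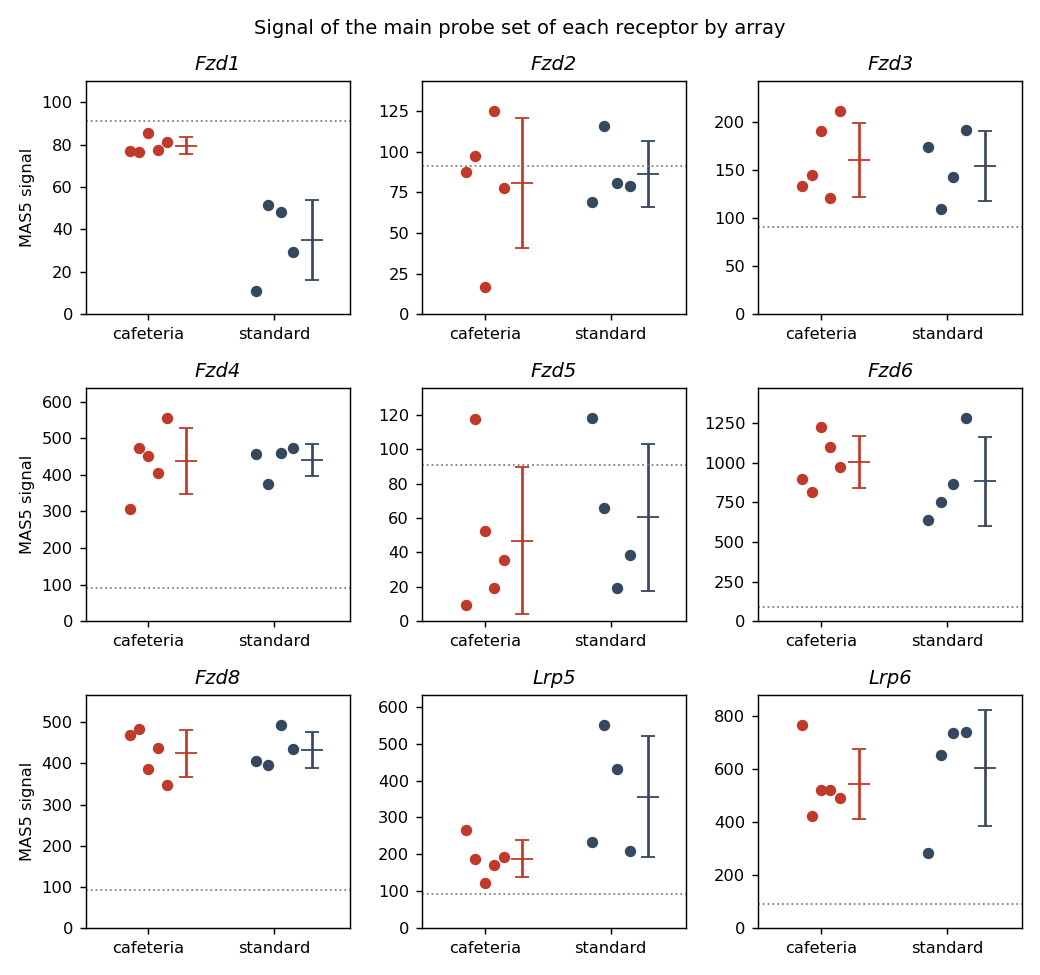
MAS5 signal of the main probe set of each receptor, 1 point per array, for cafeteria islets (red, n = 5) and standard islets (dark, n = 4), with mean and SD beside the points; the dotted line is the brightness filter at 91.1 and vertical axes differ. The groups are apart for Fzd1, where all points lie under the filter, and overlap for the other 8 genes.

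**Figure D3:**
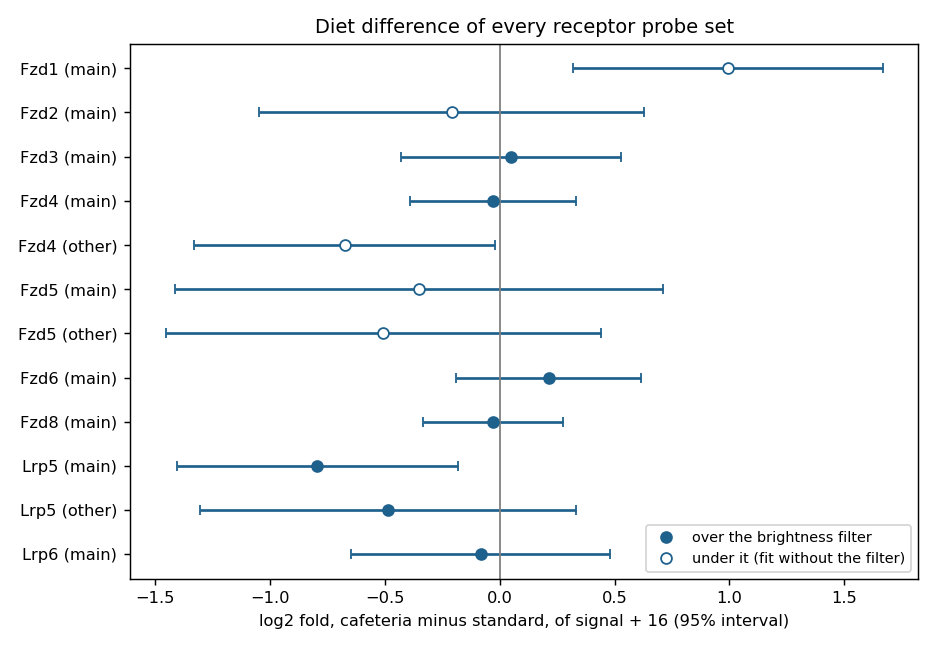
Log2 fold of cafeteria minus standard, on signal + 16, with its 95% interval from limma, for the 12 receptor probe sets; filled points were over the brightness filter and open points come from a fit without it. The intervals of Fzd1, the other Fzd4 probe set and the main Lrp5 probe set leave out 0 before adjustment for the number of probe sets.

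Lrp5, the co-receptor linked to bone mass in humans, had the lowest log2 fold among the tested members. Its main signals were 265, 188, 123, 172 and 193 in cafeteria islets, replicates 1 to 5, against 232, 551, 433 and 208 in standard islets, replicates 1 to 4. Standard replicates 2 and 3 stood above all cafeteria arrays, while standard replicates 1 and 4 lay inside the cafeteria range, so the groups overlapped. The mean was 188 ± 51.2 in cafeteria islets (SD, n = 5) and 356 ± 164 in standard islets (SD, n = 4), with a log2 fold of -0.79 ± 0.28 (SE; 95% interval -1.41 to -0.18). The adjusted p by limma was 0.839 and the exact permutation p for this single value, unadjusted, 0.0635. Without standard replicate 2 the fold was -0.55.

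A second Lrp5 probe set, built from the same expressed sequence tag and so no independent reading of the gene, gave 367, 185, 120.3, 151 and 157 in cafeteria islets against 144, 405, 499 and 154 in standard islets. The same standard replicates 2 and 3 were high, and cafeteria replicate 1 was high as well. Its log2 fold was -0.49, with a 95% interval of -1.31 to 0.33 (limma adjusted p = 0.866), and -0.19 without standard replicate 3 or -0.29 without standard replicate 2. The main probe set over the other was 0.72 to 1.23 on cafeteria arrays and 0.87 to 1.61 on standard arrays. Averaging both probe sets gave a log2 fold of -0.64, with an unadjusted limma p of 0.0695.

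Several measures of the islet samples differed between the diets or between arrays, and their part in the Lrp5 values was not tested. The summed signal of 13 named genes of acinar (digestive enzyme) cells was 3000 to 10525 in cafeteria islets and 3845 to 9654 in standard islets. Of the 12 acinar genes over the filter, 11 had positive folds. The summed signal of 13 named macrophage genes, led by Cd74, Lyz2 and C1qa, was 4731 to 7588 in cafeteria islets and 8022 to 14009 in standard islets. Cd74 weighs heavily in this sum, with a mean of 2168 in cafeteria islets and 4412 in standard islets. All 11 macrophage genes over the filter had negative log2 folds, but of uneven size, from -0.98 for Ptprc to -0.004 for Cd68, with a median of -0.21. The groups did not overlap for 1 of the 11, Cd74. None of the signals was at 0. The lowest macrophage sum of the cafeteria group, 4731, was on replicate 1, which had the highest main Lrp5 signal of that group. In standard islets the lowest sum, 8022, was on replicate 2, with the highest Lrp5 signal, 551. The highest sum, 14009, was on standard replicate 3, with an Lrp5 signal of 433. The summed signal of 11 lymphocyte genes, led by Lck, Coro1a and Cd5, was 657 to 891 in cafeteria islets and 832 to 4117 in standard islets, with the 4117 on standard replicate 3. Only 3 of these 11 genes were over the filter. The 3'/5' signal ratio of beta-actin, higher where RNA is less intact, was 2.79 in cafeteria replicate 1 and 5.63 in cafeteria replicate 3. These arrays had the highest and lowest main Lrp5 signal of that group. The order was not kept by cafeteria replicate 5, with a ratio of 4.59 and Lrp5 at 193, and replicate 4, with 3.24 and 172. For Gapdh the 3'/5' ratio in cafeteria islets was lowest on replicate 4, at 1.29, and highest on replicate 5, at 1.62. In standard islets the beta-actin ratio was 3.82 and 3.36 on replicates 2 and 3, which were high for Lrp5. On standard replicates 1 and 4, which were low for Lrp5, it was 4.84 and 3.00. Standard replicates 1 and 3 and cafeteria replicate 3 were doubted after their beta-actin ratios, stress genes or lymphocyte genes were seen. No stress gene values are given here, and cafeteria replicate 5, with a beta-actin ratio of 4.59, was kept. Without the 3 doubted arrays together, the log2 fold of Lrp5 was -0.71, with an unadjusted limma p of 0.0652.

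Lrp6, the co-receptor that mouse embryos need for normal patterning, did not separate the diets. Its signals were 765, 422, 519, 518 and 489 in cafeteria islets, replicates 1 to 5, against 282, 653, 737 and 740 in standard islets, replicates 1 to 4. Cafeteria replicate 1 was above every other array, and standard replicate 1 was below every other array. The log2 fold was -0.08, with a 95% interval of -0.65 to 0.48 (limma adjusted p = 0.970). It was -0.40 without standard replicate 1, with an adjusted p of 0.548 by limma. The summed signal of 7 duct cell genes, led by Epcam, Krt18 and Krt7, was 14438 to 18707 in cafeteria islets. In standard islets it was 15634 to 21282, with the 21282 on standard replicate 1, and its part in the Lrp6 values was not tested.

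Within each array, the log2 signal of Lrp5 minus that of Lrp6 was -1.47, -1.11, -1.94, -1.51 and -1.27 in cafeteria islets, replicates 1 to 5, against -0.26, -0.24, -0.75 and -1.75 in standard islets, replicates 1 to 4. Standard replicates 1, 2 and 3 lay above all cafeteria arrays, and standard replicate 4 lay below all but cafeteria replicate 3. This difference describes unequal change of the paralogs between arrays, not their relative amounts, and it was not tested, since it was chosen with the Lrp5 values known.

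**Figure D4:**
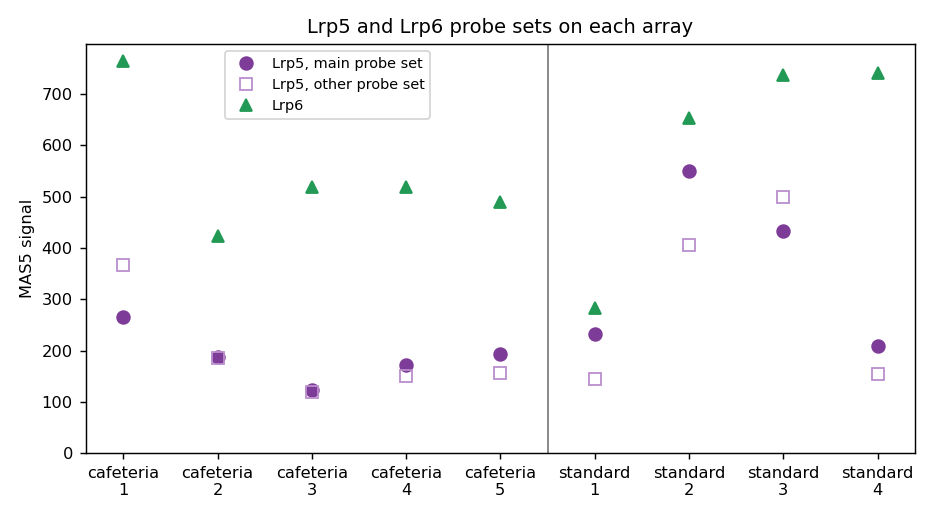
MAS5 signal of the Lrp5 main probe set (filled circles), the other Lrp5 probe set (open squares) and the Lrp6 probe set (triangles) on each of 5 cafeteria and 4 standard arrays. Both Lrp5 probe sets are highest on standard replicates 2 and 3, and the Lrp6 signal is lowest on standard replicate 1.

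Among the Frizzleds, Fzd1, which can act with Lrp5 or Lrp6 in the beta-catenin branch, was the member whose groups did not overlap. Its signals were 76.9, 76.3, 85.6, 77.5 and 81.2 in cafeteria islets, against 11.0, 51.5, 48.2 and 29.1 in standard islets. Every cafeteria array stood above every standard array, and the standard arrays were spread more widely, with an SD of 18.8 beside 3.90 in cafeteria islets. The log2 fold was 0.99, or 1.99-fold, with an exact permutation p of 0.0079, unadjusted and the smallest these arrays can give. Groups did not overlap, with cafeteria higher, for 0.741% of the 12417 probe sets under the filter, and in either direction for 1.75% of all 31042. In the fit without the filter the 95% interval was 0.32 to 1.67 and the adjusted p by limma 0.888, so the difference did not pass over all probe sets.

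All 9 Fzd1 signals were under 91.1 and within the range of the other-tissue genes. The size of the fold therefore depends on the pseudocount: it was 1.37 with a pseudocount of 1 and 0.56 with 64, both on the log2 scale. The summed signal of the 27 other-tissue probe sets was 711 to 863 in cafeteria islets and 841 to 1009 in standard islets, with medians of 825 and 922, and single genes among them went either way. Groups did not overlap for 1 of the 27 with cafeteria higher and for 1 with cafeteria lower, both named after their values were seen. Myh6, a heart myosin, had 33.4, 43.4, 47.4, 29.2 and 28.1 in cafeteria islets against 11.6, 10.7, 13.4 and 6.06 in standard islets, with a log2 fold of 0.98 beside 0.99 for Fzd1 and the same exact permutation p of 0.0079. Tnp2, a sperm nuclear protein, averaged 5.69 in cafeteria islets and 12.4 in standard islets, with a log2 fold of -0.39. Frizzleds are also used by stromal cells, and the summed signal of 12 stellate cell and fibroblast genes, led by Col3a1, Rgs5 and Vim, was 9671 to 19945 in cafeteria islets and 12907 to 16005 in standard islets; the part of either sum in the Fzd1 values was not tested. Without the 3 doubted arrays the Fzd1 log2 fold was 0.77, with an exact permutation p of 0.0667, the smallest that 4 against 2 arrays allow.

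Fzd4 is the receptor for Norrin as well as for Wnts and is known for its role in retinal vessels in humans and mice. Its main signals were 308, 473, 452, 405 and 555 in cafeteria islets, against 457, 376, 459 and 473 in standard islets. The standard arrays lay inside the cafeteria range. The log2 fold was -0.03, with a 95% interval of -0.39 to 0.33 (limma adjusted p = 0.989), and its sign turned in 5 of 21 alternatives, quantile normalisation among them. The second Fzd4 probe set, designed on another transcript record, was dim, at 43.0, 19.3, 25.4, 43.6 and 58.6 in cafeteria islets against 82.7, 50.0, 68.7 and 71.0 in standard islets. There 4 of 5 cafeteria arrays lay below all standard arrays, and the log2 fold was -0.68 with an exact permutation p of 0.0397, unadjusted, and an adjusted p of 0.888 by limma without the filter. Leaving out each array in turn gave exact permutation p-values of 0.0286 to 0.0893. The 95% intervals of both, the dim one's being -1.33 to -0.02, overlapped, and the difference between their folds was not tested. Averaging both probe sets gave a log2 fold of -0.35, with an unadjusted limma p of 0.0817. The dim one lies within the range of the other-tissue genes. The summed signal of 11 endothelial genes, led by Plvap, Kdr and Emcn, was 16342 to 19043 in cafeteria islets and 17372 to 19431 in standard islets, and its part in the Fzd4 values was not tested.

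The 250 bases before the start sites of Fzd1 and Fzd4 are shown because these are the Frizzled with separated groups and the one with both a bright and a dim probe set; the array says nothing on how either sequence acts. They are RefSeq sequences on the GRCr8 build, both on the plus strand, at chr4:30264824-30265073 for Fzd1 and chr1:152692257-152692506 for Fzd4, and lie upstream of the annotated transcript, outside exons. Capitals mark GGGCGG or its reverse complement, the GC box bound by Sp1-type factors; matches may overlap.
Fzd1: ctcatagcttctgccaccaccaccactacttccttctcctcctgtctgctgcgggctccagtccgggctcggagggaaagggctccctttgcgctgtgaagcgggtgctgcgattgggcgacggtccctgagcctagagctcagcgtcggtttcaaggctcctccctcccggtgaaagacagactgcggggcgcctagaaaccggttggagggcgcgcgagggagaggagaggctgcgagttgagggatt
Fzd4: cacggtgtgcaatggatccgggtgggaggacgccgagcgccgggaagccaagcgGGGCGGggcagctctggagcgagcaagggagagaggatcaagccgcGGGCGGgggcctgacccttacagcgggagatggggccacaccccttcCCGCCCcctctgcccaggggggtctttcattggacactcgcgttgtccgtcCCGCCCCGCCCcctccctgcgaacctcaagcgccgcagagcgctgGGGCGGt
Fzd4 holds 6 matches and Fzd1 0, and 30.5% of 33469 rat promoter windows of the same length hold at least 1. The GC content was 63.6% for Fzd1 and 71.6% for Fzd4, against a median of 51.2% over all windows. The TCF/LEF core CTTTG followed by AA, AT, TA or TT, read on both strands, had 0 matches in either sequence and were present in 14.9% of the windows. The RefSeq table used also held Fzd5, Fzd7 and Fzd8. Their windows had GC contents of 76.4%, 65.6% and 63.6%, with 8 GC boxes in Fzd5 and 0 in the others.

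Fzd6, which with Fzd3 acts in planar cell polarity in mice, had signals of 898, 819, 1228, 1103 and 974 in cafeteria islets, against 636, 753, 869 and 1282 in standard islets. Of the cafeteria arrays, 4 of 5 lay above the standard replicates 1, 2 and 3, and standard replicate 4 lay above all cafeteria arrays. The log2 fold was 0.21, with a 95% interval of -0.19 to 0.62 (limma adjusted p = 0.874). It was 0.40 without standard replicate 4, with an adjusted p of 0.916 by limma, and -0.06 without the 3 doubted arrays.

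Fzd3 had signals of 134, 145, 191, 121 and 211 in cafeteria islets, against 174, 109, 143 and 192 in standard islets. The groups overlapped over most of their ranges, with a log2 fold of 0.05 and a 95% interval of -0.43 to 0.53 (limma adjusted p = 0.982). Its sign turned in 5 of 20 alternatives.

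Fzd8, whose ligand-binding domain was crystallised with a frog Wnt, varied least among the members: its highest signal was 1.42 times its lowest. It had 468, 483, 387, 437 and 348 in cafeteria islets, against 406, 395, 493 and 434 in standard islets. The log2 fold was -0.03, with a 95% interval of -0.33 to 0.28 (limma adjusted p = 0.985), and its sign turned in 7 of 21 alternatives, quantile normalisation among them. Among the tested members this was the narrowest interval.

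The remaining Frizzleds were dim. Fzd2, a receptor used by Wnt5a, had 87.6, 97.1, 16.5, 125 and 77.8 in cafeteria islets, against 69.4, 116, 80.6 and 78.8 in standard islets. The low 16.5 on cafeteria replicate 3 set the sign of its fold, which was -0.21 with that array and 0.15 without it; the exact permutation p with all arrays was 0.849. Fzd5, which mice need in Paneth cells of the gut, had 9.42, 117, 52.4, 19.3 and 35.5 in cafeteria islets, against 118, 65.8, 19.2 and 38.4 in standard islets. Its signals spread 12.5-fold between arrays, with a log2 fold of -0.35 and an exact permutation p of 0.548. Its second probe set had signals of 3.13 to 57.5 in cafeteria islets and 17.2 to 50.3 in standard islets, and an exact permutation p of 0.373.

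The rest of the Wnt pathway was read from lists of ligands, release factors, antagonists, other receptors, intracellular components and target genes. Of 83 genes, 63 had a named probe set and 41 were over the filter, and 0 passed limma's adjusted test. At an unadjusted limma p under 0.05, 5 were lower and 0 higher, against 2.79% lower and 3.01% higher over all probe sets tested. Negative folds were found for 29 of 41, beside 51.9% of all, with a median of -0.12; without cafeteria replicate 5 the counts were 26 of 41, and with median scaling 24 of 41.

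Sfrp5, the antagonist of the series title, had the lowest fold of its list, at -1.35 on the log2 scale (limma adjusted p = 0.839). Of the other antagonists, Kremen1, which with Dkk proteins takes Lrp6 off the cell surface, had 0.44, Dkk3 -0.22 and Sfrp1 -0.17. The 4 Wnt ligands over the filter had log2 folds of -0.44 for Wnt6, -0.12 for Wnt1, -0.05 for Wnt4 and 0.05 for Wnt2b. Wnt4 was bright, at 7853 ± 488 in cafeteria islets (SD, n = 5) and 8147 ± 1121 in standard islets (SD, n = 4). Wls, which carries Wnts to the cell surface, had -0.19, and Porcn, which adds their lipid, -0.13. Of the other receptors, Ryk had -0.15, Ptk7 -0.13, and Lgr4, an R-spondin receptor that protects Frizzleds from turnover, -0.24. Lrp4, a relative of Lrp5, had 0.25, and Znrf3, a ligase that removes Frizzleds, 0.02.

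Inside the cell, 4 of 21 components were lower at an unadjusted limma p under 0.05: Tcf7 (-1.70), Apc2 (-0.42), Axin1 (-0.38) and Axin2 (-0.50). The groups overlapped for each of the 21, these 4 included. Tcf7, a nuclear partner of beta-catenin that T cells also express, had 46.6, 65.1, 86.0, 61.2 and 86.1 in cafeteria islets against 215, 218, 1079 and 77.1 in standard islets. Its 1079 was on standard replicate 3, the array with the lymphocyte sum of 4117, standard replicate 4 lay inside the cafeteria range, and the part of lymphocyte RNA in these values was not tested. Axin1 binds the tails of Lrp5 and Lrp6, and its signal was 664 ± 103 in cafeteria islets (SD, n = 5) and 867 ± 129 in standard islets (SD, n = 4). Axin2, a scaffold that is also a target gene of the pathway, had 144 ± 33.5 in cafeteria islets and 209 ± 47.2 in standard islets. Neither passed limma's test over all probe sets, and the other target genes over the filter, Ccnd1 and Znrf3, had 0.21 and 0.02.

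**Figure D5:**
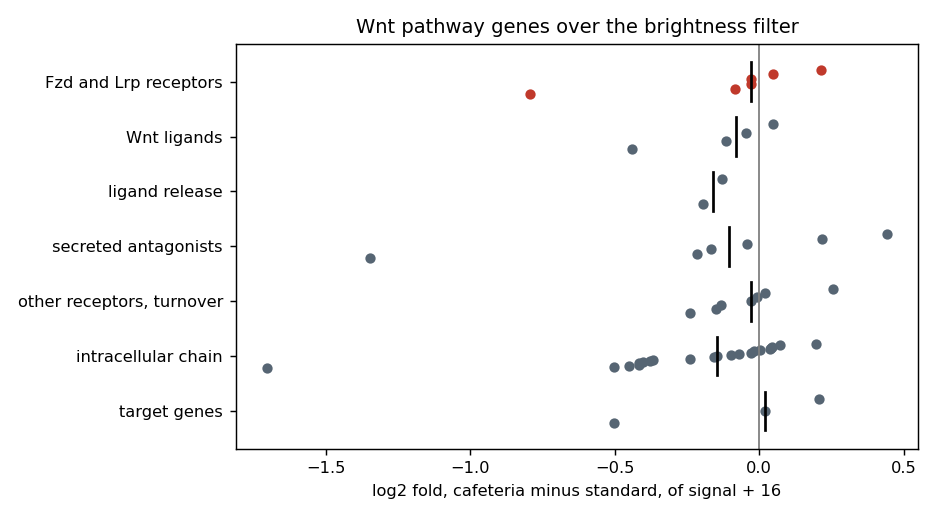
Log2 fold of cafeteria minus standard, on signal + 16, of the Wnt pathway genes over the brightness filter, 1 point per gene by role, with a bar at the median of each row; receptors are in red. Axin2 and Znrf3 each stand in 2 rows. Receptor folds lie between -0.79 and 0.21, and the far left points are Tcf7 at -1.70 and Sfrp5 at -1.35.

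The genes whose signals followed each tested receptor most closely over the 9 arrays were ranked by Pearson's r of log2 signal, as a description with no test, since the points share arrays and diets. For Lrp5 these were Sipa1l3 (r = 0.98) and Atxn1l (0.97), and 34 of 14051 named probe sets had an r over 0.9. For Lrp6 they were Sde2 (0.98) and Map1b (0.95). For Fzd3 they were Vldlr (0.96) and Pxylp1 (0.96), for Fzd4 Zfp496 (0.94) and Tmem170a (0.93), for Fzd6 Mapk8 (0.92) and Gpr158 (0.91), and for Fzd8 Prdm4 (0.96) and Znf768 (0.96). No gene stood in the leading pair of more than 1 receptor. An r over 0.9 was reached by 21 of 14052 named probe sets for Lrp6, 18 for Fzd3, 11 for Fzd8, 6 for Fzd4 and 3 for Fzd6. With so many probe sets searched over 9 arrays, some high r values arise by chance, and how many was not computed. The leading pairs are therefore not shown to be expressed together with the receptors.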

How the data were processed

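The deposited values are linear intensity signals for each probe set and array. The authors computed them with MAS5, per the submitters' processing notes, whose version is not given in the sources here. Every array had a 2% trimmed mean of 500, and the values were not scaled further. The 57 control probe sets were left out. Detection calls were not used here. Gene names came from the platform annotation, in which 20826 probe sets have 1 symbol, 436 several and 9780 none; those with several symbols were not named.

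Values were tested as log2(signal + 16) with limma 3.58.1 (R 4.3.3), with no term but diet and a trend of variance on intensity. P-values were adjusted (Benjamini-Hochberg) across the 18625 probe sets at or above the 40th percentile of mean log2 signal. Exact permutation tests (Python 3.11.15) were computed for every probe set and are unadjusted; they are printed for the 12 member probe sets and Myh6, with the share under 0.05 over all 31042. The fit was checked on simulated arrays. The named genes are all members, Sfrp5, up to 4 genes per Wnt list by smallest p, and 2 genes most like each tested member. Members and lists were chosen with earlier results of these data known. No protein table was given, so receptor proteins were not analysed here.

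Alternatives were pseudocounts of 1 and 64, quantile and median scaling, no filter or the 60th percentile, each array left out, the replicate number as a block, no trend, array weights, a threshold of 0.10 and the mean of a gene's probe sets. Leaving out 3 doubted arrays was added after seeing the data. The labels describe each replicate as a separate biological sample, and same-numbered arrays of the groups did not deviate together.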

Additional observations from a re-analysis of the deposited data

Results flagged for a closer look

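Of 24 groups of signals, 2 for each of 12 member probe sets, 3 had an array far from the others by Dixon's ratio of gap to range, where chance alone gives about 1 in 20 groups. Cafeteria replicate 1 had the highest signal of its group in both Lrp co-receptors, 367 for the second Lrp5 probe set and 765 for Lrp6. Standard replicate 2 had the lowest Fzd4 signal of its group, 376, with a ratio only just over the cut.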

How the results depend on the processing

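No receptor passed limma's adjusted threshold in any alternative run, the looser threshold of 0.10 included. The number lower at an unadjusted limma p under 0.05, 1 with all arrays, was 0 at the 60th percentile filter, without the 3 doubted arrays, with the mean of all probe sets and by exact permutation, and 0 to 2 with single arrays left out: 0 without standard replicate 2 or 3 and 2 without standard replicate 1. The number higher was 1 with no filter and 0 to 1 with single arrays left out, 1 without standard replicate 4. Over the filter were 6 receptors, 4 at the 60th percentile and 7 without the 3 doubted arrays. Fzd1 kept a positive log2 fold, 0.72 to 1.16 with single arrays left out, with exact permutation p-values of 0.0179 to 0.0286. Since its groups did not overlap, leaving out 1 array could not change the sign. These p-values are the smallest such splits allow, so they were fixed in advance. Without standard replicate 1 the Fzd1 log2 fold was 0.72. Lrp5 kept a negative one, -1.0 to -0.55 with single arrays left out, and its adjusted p was 0.392 to 1.000 over all alternatives. With single arrays left out the log2 fold was -0.38 to 0.15 for Fzd2, -0.091 to 0.15 for Fzd3, -0.12 to 0.088 for Fzd4, -0.68 to -0.022 for Fzd5, 0.073 to 0.40 for Fzd6, -0.076 to 0.038 for Fzd8 and -0.40 to 0.044 for Lrp6. With the mean of all probe sets the log2 fold of Fzd4 was -0.35. Signs also turned for Fzd3 under the replicate block (-0.049) and array weights (-0.028); for Fzd4 with quantile normalisation (0.0073), median scaling (0.015) and without the doubted arrays (0.012); for Fzd6 without those arrays (-0.060); and for Fzd8 with quantile normalisation (0.0029), median scaling (0.014), the block (0.038) and without those arrays (0.054). The cause was not tested. Other Wnt genes lower at an unadjusted p under 0.05 were 3 with median scaling, the block or without the doubted arrays, 2 at the 60th percentile and 3 to 7 with single arrays left out. Those higher were 1 without the doubted arrays and 0 to 1 with single arrays left out. The replicate numbers did not pair the arrays: deviations from group means correlated between -0.38 and 0.03 for same-numbered arrays. With the replicate block, which leaves cafeteria replicate 5 without weight, Lrp5 had -0.81 (limma adjusted p = 1.000) and Fzd1 0.99, where 4 pairs cannot give an exact permutation p under 0.125. Signals under the filter were within the range of other-tissue genes, so differences there have no firm scale.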
